A study of Homo sapiens with 6 samples.

Results

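The peroxiredoxins and the thioredoxin system are a small set of antioxidant genes, here PRDX1, PRDX2, PRDX3, PRDX4, PRDX5, PRDX6, TXN, TXN2, TXNRD1 and SRXN1. These 10 members were chosen by name, as the 6 human peroxiredoxins with the thioredoxins, the cytosolic thioredoxin reductase and sulfiredoxin, out of 26410 genes in the count table. All 10 have a row there, and 9 of them are among the 13014 genes with enough counts to be tested. The choice was made with earlier results of these data known. RNA was sequenced from Kasumi-1, an established human line of acute myeloblastic leukaemia cells, in 3 libraries from cells given a hairpin against PHF19 (shPHF19) and 3 from cells given a scrambled hairpin (control). PHF19 is a Polycomb-like protein that binds Polycomb repressive complex 2, a histone methyltransferase. The PHF19 hairpin was delivered by a lentiviral vector that also carries a green fluorescent protein and a puromycin resistance gene, and both groups then grew in puromycin (2 µg/ml) for at least 24 h, starting 48 h after delivery. The treatment label of the control libraries reads WT, whereas the protocol and the title name a scrambled hairpin. The labels do not say how many hairpin sequences were used or whether replicates were separate cultures. All p-values here therefore rest on library-to-library spread, part or all of which may be technical.

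Peroxiredoxins reduce hydrogen peroxide and other peroxides with a cysteine that the peroxide oxidises. Thioredoxin reduces that cysteine again, thioredoxin reductase reduces thioredoxin with electrons from NADPH, and sulfiredoxin rescues peroxiredoxin whose cysteine has been oxidised too far. The cytosol holds PRDX1, PRDX2, PRDX6, TXN, TXNRD1 and SRXN1. Mitochondria hold PRDX3, TXN2 and much of PRDX5, and the endoplasmic reticulum holds PRDX4. Leukaemia cells often make more peroxide than normal blood cells, and PRDX1 and PRDX2 are among the abundant proteins of blood cells.

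The libraries held 14229878 to 16615143 counts, so that 3 counts stand for 0.177 to 0.223 CPM (library-size-scaled counts, with TMM factors computed here). For a gene with no count in a library, about 3 is the upper 95% limit of the expected count, from counting error only. PHF19 stood at 168, 199 and 189 CPM in the control libraries and at 41.1, 36.9 and 33.0 CPM in the shPHF19 libraries, 5.00-fold lower (log2 fold change −2.32, SE 0.0975, edgeR quasi-likelihood test, Benjamini-Hochberg adjusted p = 3.55e-25). Of 10 markers of Kasumi-1 and myeloid blasts, all tested, 5 rose (MPO from 4278 to 8394 CPM and CD34 from 357 to 830 CPM among them), 2 fell (RUNX1T1 and ANPEP, log2 changes −0.37 and −0.64) and 3 did not pass, KIT at 2939 and 3291 CPM among those. The summed level of the 5 megakaryocyte markers was 8.13 to 10.4 CPM in controls and 6.88 to 10.2 CPM with the hairpin, with PF4 at 0 in all 6 libraries. Sums of the granulocyte and monocyte lists did not overlap between groups, nor did those of the erythroid, epithelial and T and NK cell lists. The erythroid sum was 23.6 to 30.4 CPM in controls and 16.0 to 17.3 CPM with the hairpin. The epithelial sum was 54.2 to 70.2 and 82.3 to 97.6 CPM, and the T and NK cell sum 44.1 to 53.0 and 53.1 to 57.0 CPM. The B cell and fibroblast sums overlapped between groups. In the 6-gene granulocyte list ELANE, PRTN3 and AZU1, proteins of the primary granules that early precursors make, rose, and CEACAM8, LTF and CAMP, known from later stages, were below 1 CPM in every library and were not tested. The sum of the list was 49.7 to 55.0 CPM in controls and 435 to 498 CPM with the hairpin. Of the 5 monocyte genes LYZ, ITGAM and FCGR1A fell, CSF1R did not pass and CD14 had 0 to 3 counts per library, with sums of 137 to 140 CPM and 43.9 to 47.96 CPM. Their part in the results below was not tested. The groups also differ in composition, since the median log2 change of all tested genes was −0.03 with TMM scaling, −0.24 with library totals alone and −0.14 with upper-quartile factors. Relative to those medians the log2 change of PRDX1 was 2.28 in each case and that of SRXN1, the smallest, 0.25 in each. A change of scaling shifts all genes by about the same amount, so this sameness was given in advance and tests nothing.

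Transcripts of most of the set were higher after PHF19 silencing. PRDX1 rose 4.75-fold, PRDX4 3.96-fold and TXN 2.98-fold, PRDX3, PRDX5, PRDX6 and TXNRD1 rose between 1.505-fold and 1.82-fold, and TXN2 rose 1.21-fold. SRXN1 did not pass the test, and PRDX2 had too few counts to be tested. With the edgeR quasi-likelihood test at an adjusted p threshold of 0.05, 8 of the 9 tested members were called higher, where 29.4% of all 13014 tested genes were. None of the 9 was called lower, and none was lower at an unadjusted p under 0.05, with DESeq2 or with limma-voom, whereas 30.9% of all tested genes were called lower. The 3 control and 3 shPHF19 values did not overlap, with shPHF19 higher, in 9 of 9 tested members and in 30.9% of all tested genes. Called higher and at least 2-fold were 3 members (PRDX1, PRDX4 and TXN), against 5.72% of tested genes. With library totals alone 7 members were called higher, all but TXN2 and SRXN1, against 19.9% of tested genes. The median log2 change was 0.63 over the 9 tested members. Because the members were chosen with earlier results known, setting these counts beside all genes is no test of the set. Each of these 9 averaged more than 39 CPM in the control libraries too, so none was tested only because of its level with the hairpin. In bulk RNA a change in the mix of cells and a change of RNA within each cell cannot be told apart.

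**Figure D1:**
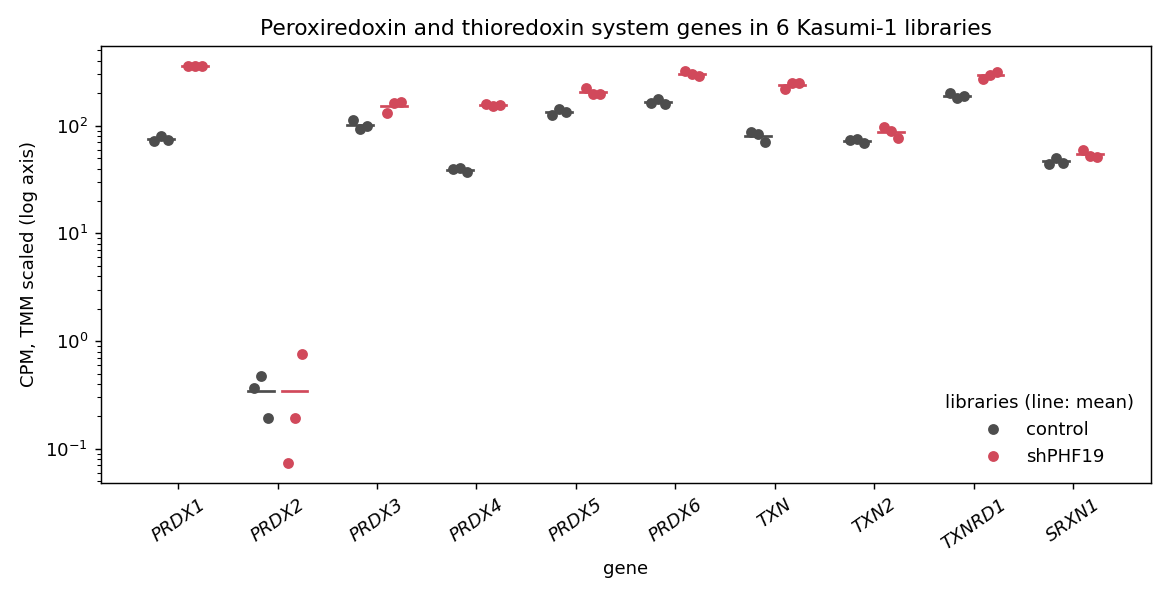
TMM-scaled CPM (log axis) of the 10 members in each of the 6 libraries, with group means as bars. PRDX1, PRDX4 and TXN show the widest gap between groups, from group means of 75.4 to 358, 39.1 to 155 and 80.6 to 240 CPM, and PRDX2 sits below 1 CPM in every library.

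PRDX1, the main cytosolic and nuclear peroxiredoxin of the kind that uses a pair of cysteines and thioredoxin, lies on the minus strand of chromosome 1 (chr1:45511036-45523047, GRCh38). Its level was 72.3, 80.3 and 73.7 CPM in the control libraries and 358, 356 and 361 CPM in the shPHF19 libraries. The shPHF19 libraries differed from each other by less than the controls did, and all lay more than 4-fold above every control. The means were 75.4 ± 4.29 (SD, n = 3) and 358 ± 2.45 (SD, n = 3) CPM, a log2 change of 2.25 (SE 0.0859, edgeR adjusted p = 1.27e-26). Among the 13014 tested genes PRDX1 had rank 23 by log2 change from the highest, and 0.169% of tested genes changed upwards by more. Its exons share 379 bases with MMACHC, a vitamin B12 processing gene on the opposite strand, whose level went from 9.60 to 20.4 CPM. MMACHC holds 1355 counts over all libraries, as against 1136 to 5491 counts of PRDX1 in single libraries, and the sources used here do not give whether the counting used strand.

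PRDX2, the peroxiredoxin best known from red blood cells and close in sequence to PRDX1, is annotated on chromosome 19 (chr19:12796820-12801859, minus strand). It had 6, 8 and 3 counts in the control libraries and 1, 3 and 11 counts in the shPHF19 libraries. The groups overlapped, and shPHF19 replicates 1 and 3 held the lowest and the highest count of the 6. The summed counts, 17 and 15, gave a depth-scaled ratio of shPHF19 to control of 0.988, with an exact 95% interval of 0.460 to 2.104 that covers counting error only. It rests on shPHF19 replicate 3, since without that library the ratio was 0.396 (0.0970 to 1.21), and without each of the others it was between 0.820 and 1.34. Fitted without a filter on low counts, the log2 change was 0.01 with an SE of 0.925, so neither a rise nor a fall of PRDX2 was detectable at this depth. The annotation gives 296 exon bases of PRDX2 that an antisense gene also covers, and 4 pseudogenes named after PRDX2, which have no row in the count table. Low RNA and reads not assigned in the counting cannot be told apart from these files. TXNDC5, an endoplasmic reticulum protein whose exons share 2658 bases with a read-through gene listed at 0, had similarly few counts, 8 to 22 per library. HOOK2, whose annotated span includes PRDX2 but shares no exon base with it, fell from 22.3 to 15.01 CPM (log2 change −0.57, edgeR adjusted p = 0.000545).

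PRDX4, the peroxiredoxin of the endoplasmic reticulum, which takes up peroxide made during oxidative protein folding, lies on the plus strand of chromosome X (chrX:23664262-23686399). It measured 39.3, 40.5 and 37.5 CPM in the control libraries and 158, 152 and 154 CPM in the shPHF19 libraries. Within each group the libraries were close to each other, with no overlap between groups. The means were 39.1 ± 1.52 and 155 ± 3.15 CPM (SD, n = 3 each), a log2 change of 1.99 (SE 0.0919, edgeR adjusted p = 1.51e-23), rank 45 among tested genes. Of the tested genes 0.338% changed upwards by more.

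The mitochondrial peroxiredoxins rose by less. PRDX3, the mitochondrial counterpart of PRDX1 (chr10:119167703-119178833, minus strand), was at 114, 92.8 and 99.2 CPM in controls and 132, 162 and 166 CPM with the hairpin. The shPHF19 replicate 1 value stood nearer to the controls than the other two, but above all of them. The means were 102 ± 10.9 and 154 ± 18.5 CPM (SD, n = 3 each; log2 change 0.59, SE 0.0929, edgeR adjusted p = 3.98e-07). PRDX5, an atypical peroxiredoxin of mitochondria, peroxisomes and cytosol (chr11:64318088-64321811, plus strand), measured 127, 145 and 135 CPM in controls and 222, 199 and 196 CPM with the hairpin. All shPHF19 values were above the highest control. Its means were 136 ± 8.95 and 206 ± 14.4 CPM (SD, n = 3 each; log2 change 0.60, SE 0.0851, edgeR adjusted p = 4.20e-08).

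PRDX6, the peroxiredoxin that works with a single cysteine and glutathione in place of thioredoxin and also acts on oxidised phospholipids, lies on chromosome 1 (chr1:173477266-173488807, plus strand), on the other arm from PRDX1. The control libraries gave 164, 176 and 158 CPM and the shPHF19 libraries 319, 302 and 288 CPM. The groups were well apart, with means of 166 ± 9.09 and 303 ± 15.6 CPM (SD, n = 3 each). The log2 change was 0.87 (SE 0.0828, edgeR adjusted p = 1.18e-12), between those of TXN and TXNRD1.

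TXN, the cytosolic thioredoxin that reduces peroxiredoxins, ribonucleotide reductase and many other proteins, lies at chr9:110243811-110256640 on the minus strand. It was at 87.5, 83.0 and 71.2 CPM in the control libraries and at 222, 250.1 and 247 CPM in the shPHF19 libraries. The lowest shPHF19 value was more than 2-fold above the highest control. Means of 80.6 ± 8.43 and 240 ± 15.7 CPM (SD, n = 3 each) gave a log2 change of 1.57 (SE 0.0896, edgeR adjusted p = 3.57e-20), rank 131 among tested genes. The annotation gives 7 pseudogenes named after TXN, more than for any other member, and none has a row in the count table. The level of TXN may therefore depend on how shared reads were treated.

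TXN2, the mitochondrial thioredoxin (chr22:36467036-36482030, minus strand), was at 73.0, 75.2 and 69.1 CPM in controls and 97.5, 89.4 and 76.9 CPM with the hairpin. The groups did not overlap, but shPHF19 replicate 3 lay just above the highest control. The log2 change was 0.28 (SE 0.0955, edgeR adjusted p = 0.0106). The call was lost without control replicate 3 (log2 change 0.25, adjusted p = 0.0581, edgeR), without shPHF19 replicate 1 (0.21, 0.0674), and with scaling by library totals alone (0.07, 0.516).

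TXNRD1, the cytosolic selenoprotein that reduces TXN, spans chr12:104215779-104350305 on the plus strand. It measured 200, 181 and 189 CPM in controls and 274, 294 and 316 CPM with the hairpin. No shPHF19 value came near the controls. The means were 190.0 ± 9.41 and 295 ± 21.4 CPM (SD, n = 3 each; log2 change 0.63, SE 0.0831, edgeR adjusted p = 6.97e-09). Its exons, 6708 bases in all, are the longest of the set, and the counts do not separate transcripts from its different starts.

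SRXN1, sulfiredoxin, an ATP-dependent repair enzyme for peroxiredoxins of the PRDX1 kind, lies at chr20:646615-653370 on the minus strand. It had 44.4, 50.6 and 44.9 CPM in controls and 59.5, 52.2 and 51.5 CPM with the hairpin. The groups did not overlap, yet the gap between the highest control and the lowest shPHF19 library was smaller than the spread within either group. The log2 change of 0.22 (SE 0.104) had an edgeR adjusted p of 0.0603. Without control replicate 2 it was 0.30 (edgeR adjusted p = 0.0245), and without shPHF19 replicate 3 it was 0.27 (0.0383), both past the threshold. Of its exon bases 2292 are also annotated to AL121758.1 on the same strand, which has no row in the count table.

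**Figure D2:**
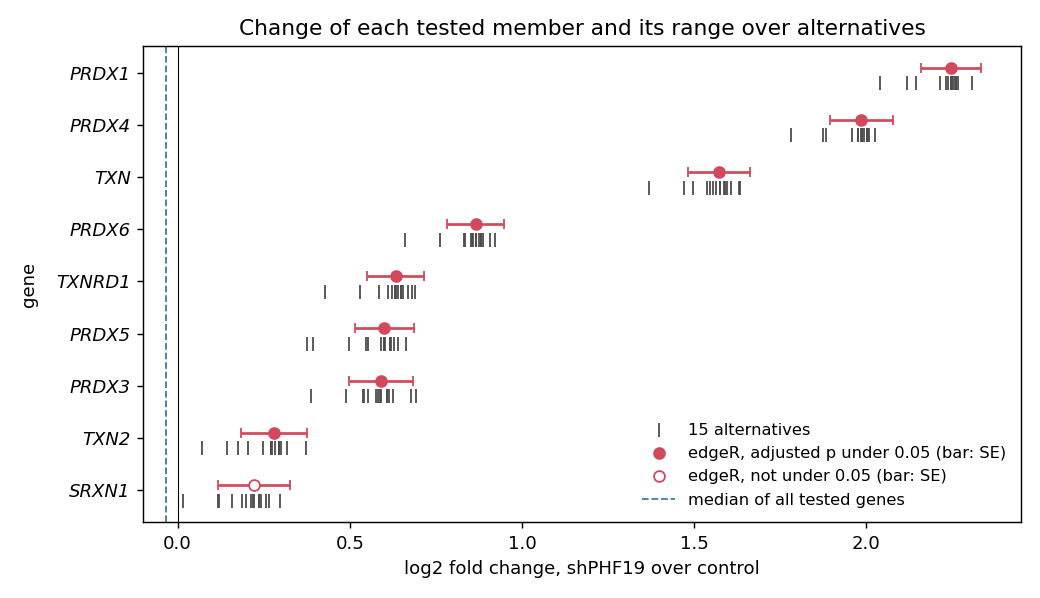
Log2 fold change of shPHF19 over control for the 9 tested members (large points, bars are 1 SE), with the values under 15 other processing choices as small points and the median of all tested genes as a dashed line. All values lie above 0, those of TXN2 and SRXN1 come close to it (0.07 and 0.02 at the lowest), and PRDX1 stays between 2.04 and 2.31.

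The authors' deposited table of their own comparison holds 5740 genes, changed in either direction. The count table has 26410 genes, of which 13014 were tested here. Of the 10 members the authors list 7, from a comparison of the same groups, which is no independent support. In the authors' deposited table the log2 fold changes are 2.26 for PRDX1, 2.00 for PRDX4, 1.59 for TXN, 0.88 for PRDX6, 0.65 for TXNRD1, 0.61 for PRDX5 and 0.60 for PRDX3. PRDX2, TXN2 and SRXN1 are not among its genes, and the largest adjusted p in the authors' deposited table is 0.00993.

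Because longer transcripts give more reads, levels of different genes were compared as CPM per kilobase of annotated exon. In control libraries PRDX5 was highest at 152 CPM per kb, followed by TXN at 70.6 and PRDX6 at 70.2, whose libraries overlapped. PRDX1 came next at 49.6, then TXN2 at 35.3, PRDX3 at 29.8 and TXNRD1 at 28.3 (these last 2 overlapping), PRDX4 at 20.5, SRXN1 at 17.3 and PRDX2 at 0.165 CPM per kb. In shPHF19 libraries PRDX1 (235) and PRDX5 (230) were highest and overlapped, TXN followed at 210, PRDX6 at 128 and PRDX4 at 81.4 CPM per kb. PRDX3, TXNRD1 and TXN2 overlapped at 44.9, 43.9 and 42.9, above SRXN1 at 20.2 and PRDX2 at 0.163. PRDX1 thus moved from position 4 to level with the highest, and PRDX4 from position 8 to position 5. Per kilobase of the longest single transcript, TXN2 stood below PRDX3 and TXNRD1 in control libraries (41.7, 44.8 and 44.4), and PRDX1 (290) and TXN (276) were above PRDX5 (230) with the hairpin.

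The makeup of the peroxiredoxin family differed between the groups. Summed over the 6 genes, the peroxiredoxin level was 313, 338 and 316 CPM per kb in controls and 740, 712 and 708 CPM per kb with the hairpin, 2.23-fold higher (2-sided exact permutation p = 0.1, which 3 against 3 libraries cannot go below). PRDX1 made up 15.2%, 15.6% and 15.3% of that sum in controls and 31.7%, 32.9% and 33.5% with the hairpin. PRDX5 made up 45.3%, 47.9% and 48.02% in controls and 33.6%, 31.3% and 31.0% with the hairpin. So the share of PRDX1 was about as large as that of PRDX5 in the shPHF19 libraries, where PRDX5 had been far ahead in the controls. This near equality depends on the length used. Per kilobase of the longest transcript, PRDX1 and PRDX5 made up 15.6% and 38.7% in controls and 31.7% and 25.1% with the hairpin. The share of PRDX4 went from 6.38% to 11.3% and those of PRDX6 and PRDX3 from 21.8% to 17.8% and from 9.30% to 6.26%, without overlap between groups. Each of these 5 differences had an exact 2-sided permutation p of 0.1 (0.12 after Benjamini-Hochberg adjustment over 6 genes), and PRDX2, at 0.0508% and 0.0230%, had p = 0.2. The PRDX2 share rests on 1 to 11 counts per library, where low RNA and unassigned reads cannot be told apart. The sum and all shares take its counts as they stand. Shares sum to 100%, so a rise of one lowers the others: PRDX3, PRDX5 and PRDX6 rose in CPM while their shares were lower. All 10 members together took 0.0974% of the counts in controls and 0.172% with the hairpin.

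**Figure D3:**
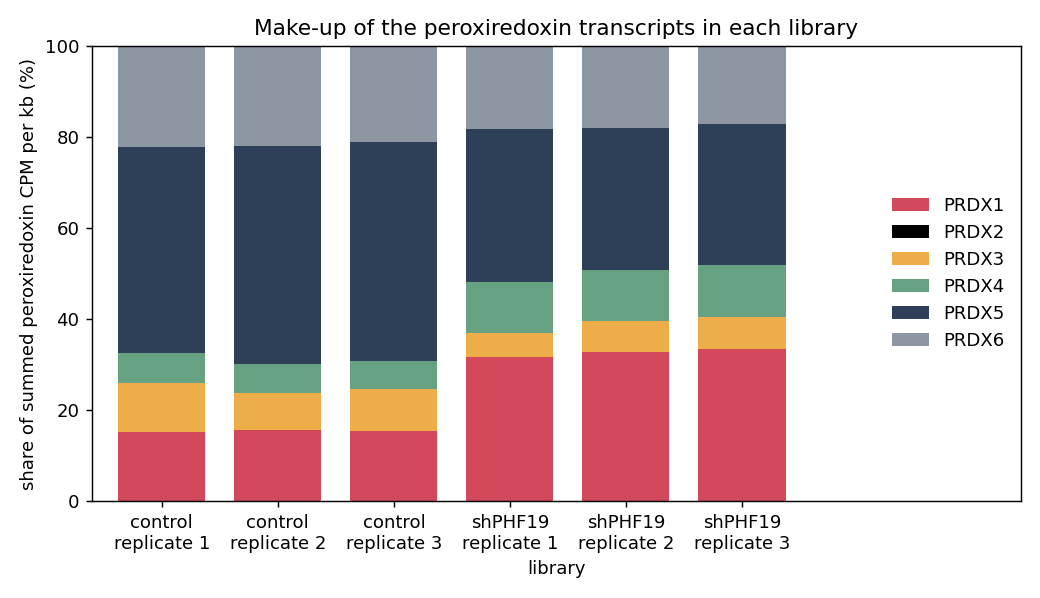
Share of each peroxiredoxin in the summed peroxiredoxin CPM per kb, in percent, as stacked bars for the 6 libraries. The mean PRDX1 share is 15.4% in control and 32.7% in shPHF19 libraries, that of PRDX5 47.1% and 32.0%, and PRDX2 is too small to see.

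The promoter windows of members that moved by different amounts were read from RefSeq (GRCh38.p14), for the 250 bases before each annotated start. Windows were found for 7 of the 10 members (9 windows, since PRDX5 and TXNRD1 have a pair of starts each). PRDX1, PRDX6 and TXN2 had no window and were not searched. They were searched on both strands for TGACNNNGC, the core of the antioxidant response element that NRF2 binds, for the E-box CACGTG, bound by MYC and related factors, for the GC box GGGCGG, and for TGATGNAA, the core of the element bound by C/EBP and ATF factors. The antioxidant core was found in both TXNRD1 windows and in none of the other 7 windows, and the E-box in those of PRDX3 and PRDX4. Below are the 4 windows with such a match, from 5′ to 3′ on the gene's strand, with the match in capitals. They are chr12:104215529-104215778 and chr12:104286782-104287031 (TXNRD1, plus strand), chrX:23667243-23667492 (PRDX4, plus strand) and chr10:119178813-119179062 (PRDX3, minus strand).
TXNRD1, first start: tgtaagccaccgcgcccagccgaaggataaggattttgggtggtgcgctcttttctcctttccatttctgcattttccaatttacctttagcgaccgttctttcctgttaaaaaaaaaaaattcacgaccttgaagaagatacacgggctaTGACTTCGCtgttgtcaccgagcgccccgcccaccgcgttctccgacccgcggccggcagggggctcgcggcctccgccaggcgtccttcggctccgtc
TXNRD1, second start: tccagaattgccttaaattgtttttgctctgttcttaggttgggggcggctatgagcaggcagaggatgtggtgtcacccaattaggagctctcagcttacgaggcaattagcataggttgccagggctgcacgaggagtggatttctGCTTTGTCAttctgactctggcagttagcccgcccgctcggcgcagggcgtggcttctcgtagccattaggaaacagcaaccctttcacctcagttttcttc
PRDX4: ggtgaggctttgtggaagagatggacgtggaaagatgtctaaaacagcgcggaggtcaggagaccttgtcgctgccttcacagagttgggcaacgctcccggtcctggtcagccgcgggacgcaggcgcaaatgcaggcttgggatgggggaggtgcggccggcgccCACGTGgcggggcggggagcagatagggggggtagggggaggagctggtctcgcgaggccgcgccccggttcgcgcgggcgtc
PRDX3: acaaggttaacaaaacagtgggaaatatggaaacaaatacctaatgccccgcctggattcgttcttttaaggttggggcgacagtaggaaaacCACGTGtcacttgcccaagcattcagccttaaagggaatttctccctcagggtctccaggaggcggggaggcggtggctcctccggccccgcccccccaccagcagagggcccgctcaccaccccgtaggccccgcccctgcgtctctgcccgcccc
The antioxidant core begins 99 bases before the first TXNRD1 start and, on the opposite strand, 102 bases before the second. The E-box lies 83 bases before the start in PRDX4, which rose 3.96-fold, and 157 bases before it in PRDX3, which rose 1.505-fold. For PRDX4 this is the RefSeq start, which lies inside the gene span given above from GENCODE. The bases before the GENCODE start of PRDX4 were not searched. Of all 35116 promoters of this length in the table, 10.9% hold the antioxidant core and 6.34% the E-box. The GC box is in 8 of the 9 windows, all but that of SRXN1, and in 42.6% of all promoters. TGATGNAA is in none of the 9 windows and in 3.14% of all promoters. The TXN window, whose gene rose 2.98-fold, holds neither TGACNNNGC nor CACGTG, which says only that these letters are not in this window.

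Other genes of the same chemistry did not share 1 direction. Among other thioredoxin reductases and thioredoxin-fold proteins (23 genes, 18 tested) 5 rose, 6 fell and 7 did not pass, with a median log2 change of −0.15. These shares are near the 29.4% and 30.9% of all tested genes. With scaling by library totals alone 4 rose and 8 fell, when 19.9% of all tested genes were called higher and 43.2% lower. TXNRD2, the mitochondrial reductase that serves TXN2, rose from 26.3 ± 0.882 to 42.4 ± 4.85 CPM (SD, n = 3 each; log2 change 0.69, edgeR adjusted p = 1.27e-06). TXNL4A, a spliceosome protein with a thioredoxin fold, and TMX2, a membrane protein of the endoplasmic reticulum, rose with log2 changes of 0.78 and 0.74 (edgeR adjusted p = 2.91e-10 and 4.40e-10). TMX4, another thioredoxin-fold membrane protein, and TXNL1, a proteasome-bound one, fell with log2 changes of −0.81 and −0.59 (edgeR adjusted p = 3.76e-10 and 5.00e-07).

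Among thioredoxin substrates and binding partners (14 genes, all tested) 4 rose, 5 fell and 5 did not pass (median log2 change −0.11), near the shares of all tested genes (29.4% and 30.9%). With library totals 2 rose and 9 fell, when 19.9% and 43.2% of all genes did. RRM2 and RRM1, subunits of the ribonucleotide reductase that thioredoxin supplies with electrons, rose from 194 to 412 CPM and from 173 to 248 CPM (log2 changes 1.09 and 0.52, edgeR adjusted p = 4.18e-16 and 6.67e-07). TXNIP, which binds thioredoxin and blocks its active site, was at 1150, 1143 and 1130 CPM in controls and 422, 433 and 462 CPM with the hairpin. That is a fall from 1141 ± 10.5 to 439 ± 20.6 CPM (SD, n = 3 each; log2 change −1.38, edgeR adjusted p = 5.69e-20), opposite in direction to TXN. Per kilobase of exon, TXNIP was 4.14, 4.34 and 5.00 times TXN in the control libraries and 0.600, 0.545 and 0.588 times TXN in the shPHF19 libraries. So the transcript of the inhibitor exceeded that of TXN in every control library and was below it in every shPHF19 library (exact 2-sided permutation p = 0.1). SESN2, a sestrin linked to peroxiredoxin repair and nutrient signalling, fell from 99.1 to 29.2 CPM (log2 change −1.77, edgeR adjusted p = 2.12e-19).

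In the glutathione branch, which removes peroxides in parallel, most genes did not pass the test. Of 13 glutaredoxin, glutathione peroxidase and glutathione reductase genes 10 were tested, 2 rose, none fell with edgeR (nor at an unadjusted p under 0.05, nor with DESeq2 or plain limma-voom) and 8 did not pass (median log2 change 0.02). Of all tested genes 29.4% were called higher and 30.9% lower with edgeR. GPX4 was called lower with limma-voom after removal of length and GC trends (−0.17, adjusted p = 0.0133). With library totals 1 rose and 2 fell (GLRX and GPX4), when 19.9% of all tested genes were called higher and 43.2% lower. GLRX5, a mitochondrial iron-sulfur cluster protein, rose from 55.3 to 96.3 CPM (log2 change 0.80, edgeR adjusted p = 7.35e-10) and GPX7, a peroxidase of the endoplasmic reticulum, from 44.4 to 56.3 CPM (0.34, 0.00328), the latter not past the threshold with library totals. The main peroxidases GPX1 (709.7 and 750.9 CPM, log2 change 0.08) and GPX4 (399 and 389 CPM, −0.04) did not pass (edgeR adjusted p = 0.411 and 0.729). The sign of GPX1 turned with library totals, with upper-quartile factors and after removal of length and GC trends, and that of GPX4 without control replicate 2 (0.02) or shPHF19 replicate 3 (0.03). GLRX and GSR, the cytosolic glutaredoxin and glutathione reductase, had log2 changes of −0.12 and 0.19 (edgeR adjusted p = 0.456 and 0.0819), while GSR was called higher with DESeq2 (0.21, adjusted p = 0.0447), where 3 of the list rose, and had a log2 change of −0.01 with library totals.

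Of the 5 superoxide dismutase and catalase genes 4 were tested, with 2 higher and 1 lower (median log2 change 0.25). The shares of all tested genes were 29.4% higher and 30.9% lower. With library totals 1 was called in each direction, against 19.9% and 43.2% of all genes. SOD1, the cytosolic enzyme that turns superoxide into the hydrogen peroxide that peroxiredoxins remove, was at 110, 114 and 89.7 CPM in controls and 316, 315 and 326 CPM with the hairpin. With no overlap between groups, its log2 change was 1.61 (edgeR adjusted p = 1.04e-20), near that of TXN. SOD2, the mitochondrial enzyme, rose from 37.3 to 46.3 CPM (log2 change 0.31, edgeR adjusted p = 0.0115), but missed the threshold once control replicate 2 was left out (0.26, 0.0599) and with library totals (0.11, 0.408). CAT, catalase, fell from 294 to 254 CPM (−0.21, edgeR adjusted p = 0.0250). CAT missed the threshold in 4 of the 6 fits that leave out a library. Its log2 change was −0.18 (edgeR adjusted p = 0.0749) without control replicate 1 and −0.21 (0.0632) without control replicate 3. Leaving out the first or the second shPHF19 replicate gave −0.14 (0.143) and −0.22 (0.0755). The call was also lost with the replicate number as a block (−0.21, 0.0829) and with no filter on low counts (−0.19, 0.0653).

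In a list of enzymes around the NADPH supply of thioredoxin reductase, more rose than fell. The counts were 9 and 4 of 17 tested (18 listed, median log2 change 0.25), against 29.4% and 30.9% of all tested genes. Not every enzyme of the list forms NADPH itself. With library totals the counts were 5 and 4, against 19.9% and 43.2%. TALDO1, transaldolase of the pentose phosphate pathway, rose from 144 to 386 CPM (log2 change 1.42, edgeR adjusted p = 5.90e-20). IDH2, the mitochondrial NADPH-forming isocitrate dehydrogenase, and MTHFD1, a folate enzyme of the cytosol, rose from 318 to 654 CPM and from 114 to 216 CPM (log2 changes 1.04 and 0.93, edgeR adjusted p = 4.36e-15 and 2.63e-13). ALDH1L2, a mitochondrial folate dehydrogenase, fell from 178 to 86.3 CPM (−1.05, edgeR adjusted p = 5.43e-14).

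NRF2, encoded by NFE2L2, is the transcription factor best known for inducing TXN, TXNRD1, SRXN1 and PRDX1. In a list of its other targets and its regulators (23 genes, 18 tested) 4 rose, 4 fell and 10 did not pass (median log2 change −0.03). Of all tested genes 29.4% rose and 30.9% fell. With library totals 1 of the list rose and 9 fell, against 19.9% and 43.2% of all genes. NFE2L2 itself averaged 42.5 and 36.6 CPM (log2 change −0.21, edgeR adjusted p = 0.0892), and it was called lower with library totals (−0.42, 0.00134) and upper-quartile factors (−0.32, 0.0115). KEAP1, which marks NRF2 for degradation, rose from 122 to 171 CPM (0.48, 4.00e-06). SLC7A11, the cystine importer, fell from 62.5 to 9.39 CPM (log2 change −2.73, edgeR adjusted p = 3.24e-23), and FTH1, ferritin heavy chain, from 2075 to 679 CPM (−1.61, 1.59e-22). HMOX1, heme oxygenase 1, fell from 5.62 to 0.407 CPM (−3.74, edgeR adjusted p = 1.37e-11), with 5, 11 and 2 counts in the shPHF19 libraries. NQO1, a quinone reductase, rose from 5.42 to 8.05 CPM (0.57, edgeR adjusted p = 0.0115), and with library totals its change of 0.36 missed the threshold. Genes of this list thus moved in both directions, with SLC7A11, FTH1 and HMOX1 opposite to PRDX1, TXN and TXNRD1.

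TXNRD1 needs selenocysteine, and of 19 selenoprotein synthesis factors and other selenoproteins 16 were tested, with 6 higher, 2 lower and 8 not past the threshold (median log2 change 0.18). The shares over all tested genes were 29.4% and 30.9%. With library totals 3 were higher and 4 lower, against 19.9% and 43.2%. SEPSECS, which makes selenocysteine on its transfer RNA, fell from 61.5 to 18.2 CPM (log2 change −1.75, edgeR adjusted p = 1.72e-17), and SEPHS2, which makes the selenium donor, from 158 to 105 CPM (−0.59, 5.32e-08). SELK (now SELENOK), a selenoprotein of the endoplasmic reticulum, and SEPHS1 rose with log2 changes of 0.89 and 0.54 (edgeR adjusted p = 1.93e-09 and 6.91e-07).

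**Figure D4:**
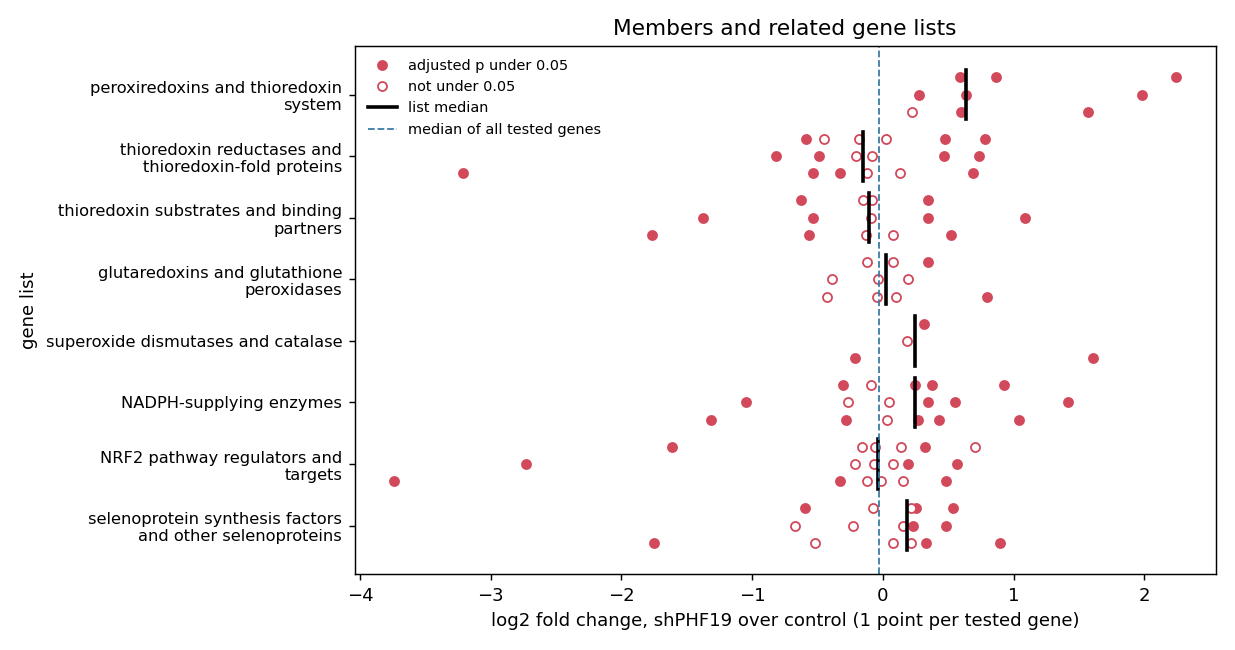
Log2 fold change of shPHF19 over control for each tested gene of the set and of 7 related lists, with the median of each as a bar. The 9 tested members lie above 0 with a median of 0.63, whereas the list medians lie between −0.15 and 0.25 and every list but the set itself holds genes on both sides of 0.

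Within the set, the pairs with the most similar pattern over the 6 libraries, by Euclidean distance between log2 CPM centred on each gene's mean, were TXN2 with SRXN1 (0.187) and PRDX3 with TXNRD1 (0.190). PRDX1 was nearest to PRDX4 (0.335) and PRDX5 to PRDX6 (0.347). Among the 10340 tested genes that averaged 5 CPM or more, the nearest to PRDX1 were EGFL7, a secreted growth factor-like protein (distance 0.182, from 50.9 to 251 CPM), and C7orf50 (0.229, from 7.71 to 34.03 CPM). With 6 libraries in 2 groups, such likeness mostly reflects the size of the group difference.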

How the data were processed

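Titles gave the groups and replicate numbers. The submitters' processing notes name hg38, HTSeq 0.11.2 and HISAT2 2.1.0. Not given in the sources used here are the annotation and the counting's strand setting. The authors deposited whole-number counts per gene symbol (26410 rows, 6991 with no count) and a table of their own comparison holding a mean normalized signal (baseMean), a log2 fold change with its standard error, and p-values with adjusted p-values. Which tool made that table is not stated in the labels.

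The test was edgeR 4.0.16 (R 4.3.3) on the counts (filterByExpr, TMM, glmQLFit and glmQLFTest with robust estimation, group as the only term) with Benjamini-Hochberg adjustment over 13014 genes. CPM, SDs and shares were computed here. The common biological coefficient of variation was 0.0915, and replicates of a group differed beyond counting noise (4.78 to 12.4 chi-square units per degree of freedom). Alternatives used DESeq2 1.42.0 and limma 3.58.1. Positions and exon lengths came from GENCODE 29 (23643 symbols matched), promoters from RefSeq. The fit was also run on simulated data with few changed genes, as many up as down. Those data lack the difference in composition seen here, so that run does not test how the fit handles it.

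The members and lists were chosen with earlier results of these data known. Named are PHF19, the members, counted genes that overlap them, up to 4 members of each list with the smallest adjusted p, a fixed set of redox genes, and the 3 genes closest to the most changed member. Some results that this rule covers are not given in the text. TXNDC5 and the cell type markers were named after their values were seen. 10 selenoproteins were found under older symbols.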

Additional observations from a re-analysis of the deposited data

How the results depend on the processing

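PRDX1, PRDX3, PRDX4, PRDX5, PRDX6, TXN and TXNRD1 kept their direction and their call under all 15 alternatives, and no tested member changed direction. The lowest log2 changes, 2.04, 0.39, 1.78, 0.38, 0.66, 1.37 and 0.43 in that order, came with library totals alone, except that of PRDX5, which came with limma-voom after removal of length and GC trends. Besides the alternatives named with the results, TXN2 lost its call with upper-quartile factors (log2 change 0.18, adjusted p = 0.106) and with limma-voom after removal of length and GC trends (0.14, 0.0840), and SRXN1 was called with RLE factors in edgeR (0.24, 0.0452) and with DESeq2 (0.24, 0.0483). With library totals 2590 genes were called higher and 5624 lower (31.5% of calls higher, 48.8% with TMM), with upper-quartile factors 3190 and 4778 (40.0%), and 7 members were higher under both. Leaving out 1 library gave 7 to 9 members called higher, 3473 to 3790 genes higher and 3626 to 3969 lower (7099 to 7759 in all). With exon lengths from the longest transcript, the differences in share were 16.1 percentage points for PRDX1 (17.3 with all exons), 6.91 for PRDX4 (4.93), −13.6 for PRDX5 (−15.1) and −5.32 for PRDX6 (−4.02). Leaving out 1 library gave 16.9 to 17.8 points for PRDX1, 4.85 to 5.04 for PRDX4, −16.0 to −14.7 for PRDX5, −4.33 to −3.73 for PRDX6 and −3.67 to −2.36 for PRDX3. With length and GC trends removed 4 selenoprotein list members were called instead of 8. SELT, C11orf31, SELK and SEPN1, called in the main fit, had no matched exon length and so were not in that fit. Same-numbered libraries did not deviate together (correlations −0.164, −0.00655 and −0.0537), so no pairing by number was detected. Deviations from the mean of 3 libraries cannot show whether same-numbered libraries shared a culture or batch. With the replicate number as a block, 3555 genes were called higher and 3752 lower, TXN2 was still called (0.27, 0.0371), and no member's call changed. Leaving out each library from the PRDX2 count ratio was chosen after seeing the data. With 3 libraries a group, differences near the size of TXN2 and SRXN1 are at the limit of what was detected.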
